A study of Bos taurus with 9 samples.

Results

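The second 6 h of exposure of MAC-T cells to lipopolysaccharide (LPS) are described here, by 3 libraries taken at 12 h post-infection (hpi) and 3 taken at 6 hpi, which are 6 of the 9 libraries of the series. They were chosen by the time point in their labels, and no measured value entered the choice. All 9 libraries were made from MAC-T, an immortalized bovine line of mammary epithelial origin. The cells of the 6 libraries were exposed to 50 ng/μL LPS for 6 or 12 h, and the other 3 libraries were taken at 0 h. Each time point was a 6-well plate of its own, so plate and length of exposure cannot be told apart. The labels number the 3 libraries of a time point, and where they are wells of one plate the p-values measure the spread between wells.

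LPS is the outer membrane glycolipid of Gram-negative bacteria such as Escherichia coli, a common cause of mastitis. Epithelial cells sense it through TLR4, which signals through NF-kB, MAPK and interferon regulatory factors to cytokine genes, and the transcripts present change with the time since exposure. Long non-coding RNAs (lncRNAs) are transcripts with no apparent coding potential, some of which act on genes beside or opposite their own locus. Circular RNAs (circRNAs) are closed by a back-splice from an exon to one upstream of it, and they lack the ends at which linear RNAs are degraded.

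The lncRNA values were fragments mapped to a transcript, scaled for its length and for the mapped fragments of the library (FPKM), of 2257 transcripts from 1832 genes. The number of fragments behind an FPKM value was not analysed here, so no counting interval is given. A transcript was tested where it was above 0.5 FPKM in at least 3 of the 9 libraries, which left 1948. It was called where the log2 fold change of 12 over 6 hpi, on the log2(FPKM + 0.1) scale, passed 1 in either direction at an unadjusted p under 0.05, the thresholds that the study used. Adjusted p-values are Benjamini-Hochberg values over all transcripts tested. Fold changes are given with their standard error (SE), and the pseudocount makes those of low transcripts smaller.

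Between 6 and 12 hpi, 105 of 1948 lncRNA transcripts were called, 5.39% of those tested. Of these, 68 (3.49%) were higher at 12 hpi and 37 (1.9%) were lower. None passed an adjusted p of 0.05 in limma, where the smallest was 0.332, while 157 (8.06%) had an unadjusted p under 0.05. The values of the 2 time points did not overlap for 295 transcripts (15.1%) and both conditions were met by 85 (4.36%). The excess of higher over lower calls moved with the scaling, since 53 were higher and 47 lower with each library centred on its median, and 52 and 53 after quantile normalization. It also moved with single libraries, with 57 higher and 55 lower when 12 hpi replicate 2 was left out, and 58 and 54 when 12 hpi replicate 3 was. Some transcripts entered the test only through the time point at which they were high. Of the 13 tested transcripts above 0.5 FPKM in the 12 hpi libraries and in no other, 11 were called, and of 7 above it only in those of 6 hpi, 4 were called. Further transcripts passed 0.5 FPKM in fewer than 3 libraries outside their high time point and also needed it to be tested. These were not counted. Over the tested transcripts the median log2 fold change was 0.07.

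The libraries of the 2 time points were nearly as alike as those within a time point. Across transcripts, the squared correlation of log2 values was 0.42 to 0.465 for the 6 pairs of libraries within a time point and 0.357 to 0.456 for the 9 pairs between them. The median FPKM of a library was 0.743, 0.675 and 0.694 (6 hpi) or 0.705, 0.779 and 0.777 (12 hpi). Transcripts listed at 0 numbered 187, 199 and 179 at 6 hpi and 167, 150 and 147 at 12 hpi, a difference of −33.7 with no overlap (two-sided exact permutation test, p = 0.1, the smallest that 3 against 3 libraries can give). The 2 time points thus differed in transcripts listed at 0 but overlapped in the number above 0.5 FPKM, with counts of 1524, 1420 and 1452 at 6 hpi and of 1440, 1565 and 1559 at 12 hpi. By the study's mapped reads, 12 hpi replicates 2 and 3 were the deepest of the 6 libraries, and they had the fewest transcripts at 0. With fewer mapped reads than 6 hpi replicates 1 and 3, 12 hpi replicate 1 also had fewer transcripts at 0. The part of depth in this difference was not tested.

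**Figure D1:**
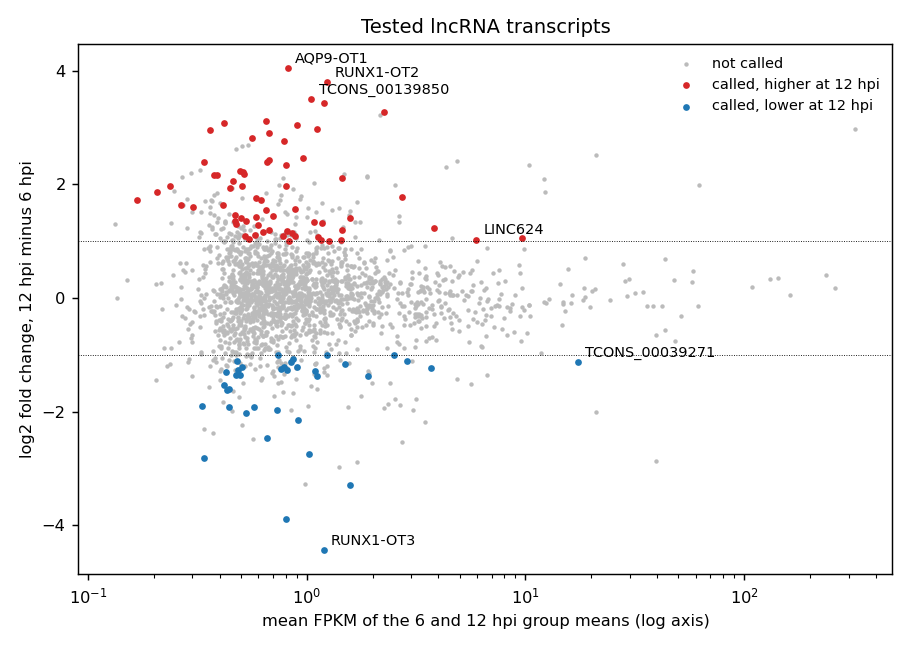
Log2 fold change of 12 over 6 hpi (vertical axis) against the mean FPKM of the 2 group means (horizontal log axis) for the 1948 tested lncRNA transcripts, with the 68 called higher in red, the 37 called lower in blue and the others in grey. Dotted lines mark a log2 fold change of 1 in either direction, and a single call, TCONS_00039271, has a mean of 10 FPKM or more.

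The called lncRNAs were mostly low. Of the 1206 tested transcripts with a mean under 1 FPKM, 50 were called higher and 25 lower (6.22%). Of the 685 between 1 and 10 FPKM, 18 were higher and 11 lower (4.23%). Of the 57 at 10 FPKM or more, 1 was lower and none was higher (1.75%). In 47 of the 105 called transcripts both group means were under 1 FPKM, and in 40 at least 1 of the 6 libraries was listed at 0. By type, 18 antisense lncRNAs were higher and 8 lower of 531 tested (4.90%), 21 intergenic were higher and 10 lower of 521 (5.95%), 26 sense overlapping were higher and 16 lower of 712 (5.90%), and 3 annotated were higher and 3 lower of 184 (3.26%). A sense overlapping lncRNA lies on the strand of its host gene, so RNA of the host gene itself cannot be told apart from it in these values.

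The abundant called lncRNA was TCONS_00039271, antisense to RRAS2, which encodes a small GTPase of the Ras family (ARS-UCD1.2, chr15:38367178-38397239). It had 28.5, 20.7 and 22.3 FPKM at 6 hpi and 9.48, 10.2 and 12.7 at 12 hpi. The 3 libraries of 12 hpi all lay below the 3 of 6 hpi, and the 0 h libraries held 43.1, 44.6 and 24.0 FPKM. From 6 to 12 hpi the log2 fold change was −1.14 (SE 0.26), with an adjusted p of 0.344 in limma. The sense overlapping transcript RRAS2-OT1 had a log2 fold change of −0.08 and was not called. TCONS_00039271 is a candidate that the study took to qRT-PCR, and its primers are shown because they define the part of the transcript that this assay reads.
TCONS_00039271 forward: cgaagcgcggagaagcta
TCONS_00039271 reverse: tgcgaagtcgtgtggagga

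The other candidate of the study, TCONS_00139850, lies antisense to ENSBTAG00000009752 at chr7:17846885-17960439, and the study pairs it with CD70, a ligand of the tumour necrosis factor family. The study predicted targets by co-location and co-expression, and its text puts forward CX3CL1 and NOTCH2 for this lncRNA. TCONS_00139850 was listed at 0, 0 and 0.390 FPKM at 6 hpi and at 1.39, 3.19 and 1.34 at 12 hpi. All 3 libraries of 0 h were at 0, so the transcript was above 0.5 FPKM in the 12 hpi libraries only. It therefore entered the test through the group where it was high, which favours a call, and its log2 fold change of 3.50 (SE 0.80, adjusted p = 0.344 in limma) is a description. The same holds for LINC1054, CYS1-OT3, ENSBTAG00000001956-AS1, TCONS_00042399, RNF5-OT3 and CFAP91-OT1 below. RUNX1-OT2, RUNX1-OT3, AQP9-OT1, TCONS_00158650, LINC892, DAP-OT2, ENSBTAG00000055209-OT1, LINC1115 and SPATA2-OT1 passed 0.5 FPKM in fewer than 3 libraries outside their high group. They also needed that group to be tested, which favours a call in the same way. The 5 listed transcripts of the gene of TCONS_00139850, XLOC_081030, summed to 1.34, 2.69 and 2.21 FPKM at 6 hpi and to 4.86, 6.15 and 4.34 at 12 hpi. This sum was called too, with a log2 fold change of 1.3 (SE 0.32). At 0 h the sum was 4.22, 2.03 and 2.81 FPKM, so the other transcripts of the gene were present before LPS.
TCONS_00139850 forward: acaagtgaacagcgaagg
TCONS_00139850 reverse: catcaaaggtgggaacg

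RUNX1 encodes a transcription factor of blood cells that is also active in mammary epithelium, and 2 of its 5 sense overlapping lncRNAs were called in opposite directions. RUNX1-OT2 (TCONS_00007663, chr1:147184463-147244722) was listed at 0, 0 and 0.393 FPKM at 6 hpi and at 1.71, 3.27 and 2.07 at 12 hpi. RUNX1-OT3 (TCONS_00007664, chr1:147184463-147244730) was listed at 3.14, 2.06 and 1.94 FPKM at 6 hpi and at 0, 0 and 0.0405 at 12 hpi. The groups did not overlap for either transcript. The log2 fold changes were 3.80 (SE 0.72) for RUNX1-OT2 and −4.44 (SE 0.95) for RUNX1-OT3, each with an adjusted p of 0.332. RUNX1-OT3 reached an adjusted p of 0.028 in limma when only the 6 libraries were fitted. Outside 6 hpi it passed 0.5 FPKM in 0 h replicate 3 alone. It thus entered this fit too through the group where it was high, which favours a small p.

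Taken as a pair, RUNX1-OT2 and RUNX1-OT3 held 3.14, 2.06 and 2.33 FPKM at 6 hpi and 1.71, 3.27 and 2.11 at 12 hpi, which overlap. RUNX1-OT3 made up 35.5%, 36.6% and 35.6% of the FPKM of all 5 transcripts at 6 hpi, and RUNX1-OT2 made up 31.6%, 36.6% and 39.8% at 12 hpi. The other 3 transcripts were not called. All 5 transcripts summed to 8.84, 5.63 and 5.45 FPKM at 6 hpi and to 5.41, 8.94 and 5.21 at 12 hpi, with a log2 fold change of −0.03 (SE 0.26). At 0 h, RUNX1-OT2 was at 1.40, 1.50 and 0.336 FPKM and RUNX1-OT3 at 0.0460, 0 and 1.57, so the library with more RUNX1-OT3 had less RUNX1-OT2 there too. The 2 spans have the same start and nearly the same end, and how fragments shared by both were divided between them was not tested. The study measured RUNX1-OT3 by qRT-PCR with this pair of primers.
RUNX1-OT3 forward: ccatagcgtcacaaagagtc
RUNX1-OT3 reverse: ggctgaaagatgtctaaggg

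**Figure D2:**
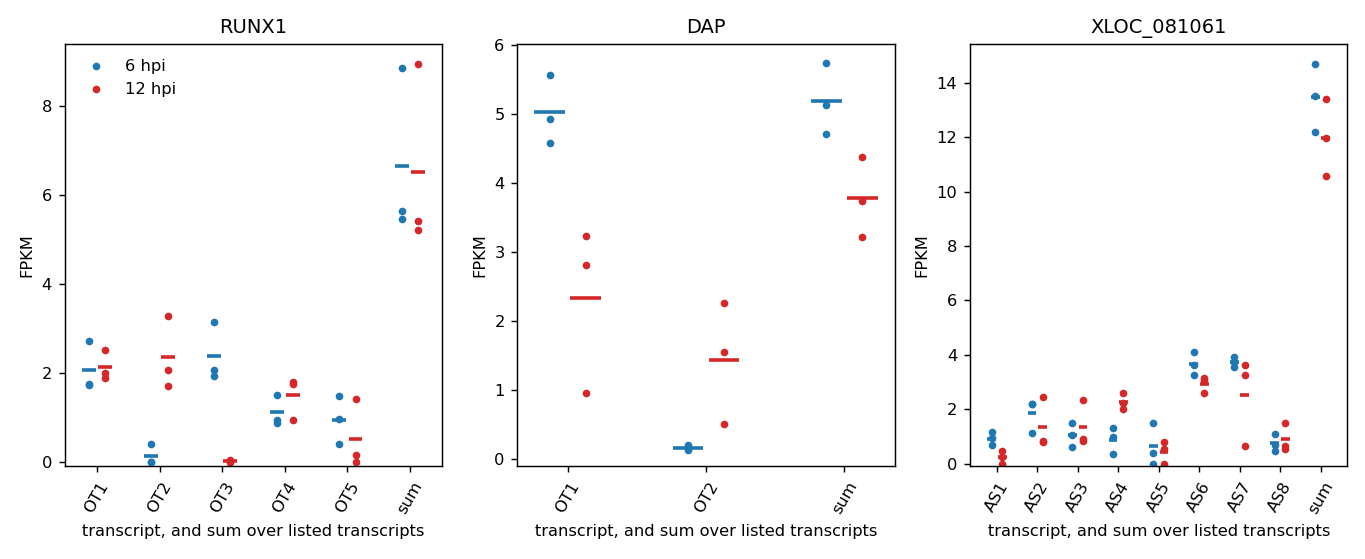
FPKM (vertical axis) of each listed lncRNA transcript of RUNX1, DAP and XLOC_081061, and of their sum, at 6 hpi (blue) and 12 hpi (red). Points are the 3 libraries and short lines their means, and in each gene transcripts were called in both directions while the sum was not called.

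Calls in opposite directions occurred in 3 genes, RUNX1, DAP and XLOC_081061. DAP encodes death-associated protein, a regulator of autophagy. DAP-OT1 had 4.59, 5.57 and 4.93 FPKM at 6 hpi and 0.964, 2.82 and 3.24 at 12 hpi, with a log2 fold change of −1.23 (SE 0.41). DAP-OT2 had 0.131, 0.163 and 0.203 FPKM at 6 hpi and 2.26, 1.55 and 0.511 at 12 hpi, with a log2 fold change of 2.34 (SE 0.80). Their sum had a log2 fold change of −0.45 (SE 0.20) and was not called. Without 12 hpi replicate 1 neither transcript was called, with log2 fold changes of −0.71 and 1.93, and without 12 hpi replicate 2 DAP-OT2 was not called, at 2.18.

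XLOC_081061 holds 8 lncRNAs antisense to ENSBTAG00000017661, 2 of which were called. ENSBTAG00000017661-AS4 had 0.362, 0.983 and 1.3 FPKM at 6 hpi and 2.01, 2.22 and 2.60 at 12 hpi. ENSBTAG00000017661-AS1 had 1.15, 0.671 and 0.927 FPKM at 6 hpi and 0.453, 0.229 and 0 at 12 hpi. The log2 fold changes were 1.41 (SE 0.41) and −1.92 (SE 0.58). The sum over the 8 transcripts, 12.2 to 14.7 FPKM at 6 hpi and 10.6 to 13.4 at 12 hpi, overlapped between the time points and had a log2 fold change of −0.17 (SE 0.17). Without 6 hpi replicate 1, ENSBTAG00000017661-AS4 was not called, at 0.94.

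Over all genes, the sum of FPKM per gene gave 79 calls among 1619 tested genes (4.88%), of which 53 (3.27%) were higher at 12 hpi and 26 (1.61%) lower, and 4.08% were called with no overlap between the time points. No gene sum passed an adjusted p of 0.05 in limma, where the smallest was 0.306, and 136 (8.4%) had an unadjusted p under 0.05. With each library centred on its median, 40 gene sums were higher and 38 lower, and the excess of higher calls was no longer present. Leaving out 12 hpi replicate 2 gave 46 higher and 45 lower, and leaving out 12 hpi replicate 3 gave 43 and 44. Of the 105 called transcripts, 64 come from genes with a single listed transcript and 41 from genes with several. For these 41, the gene sum was also called for 5, had the opposite sign for 7, and lay within 0.5 of 0 on the log2 scale for 22. The median size of the log2 fold change was 1.98 for the 41 transcripts and 0.45 for their gene sums, with the transcripts chosen by their own change. For most of the 41, the gene's total thus differed less between the time points than the called transcript did.

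**Figure D3:**
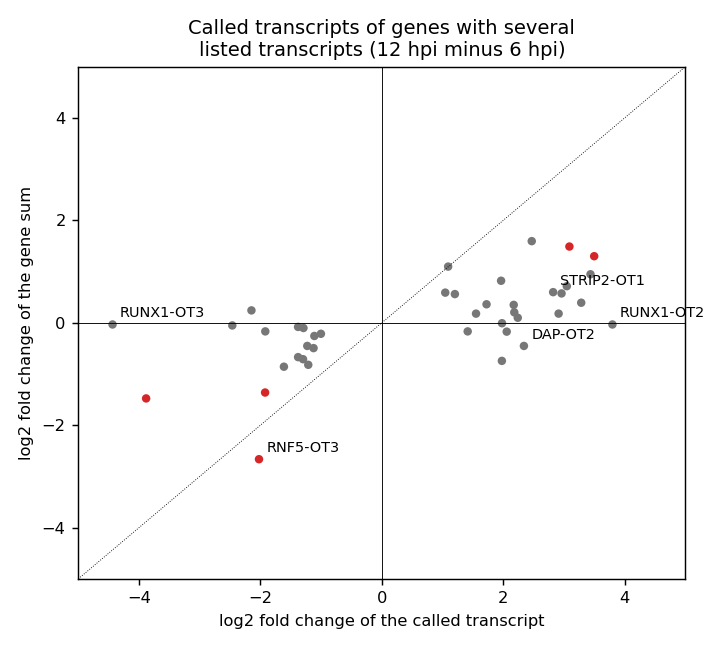
Log2 fold change of 12 over 6 hpi of the gene sum (vertical axis) against that of the called transcript (horizontal axis), for the 41 called transcripts of genes with several listed transcripts. Points in red are the 5 whose gene sum was also called, and most points lie closer to 0 on the vertical axis than the dotted line of equal change.

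STRIP2-OT1 and TCONS_00158650 were of this kind. STRIP2 encodes a protein of the striatin-interacting phosphatase and kinase complex, and STRIP2-OT1 had 0, 0.277 and 0 FPKM at 6 hpi and 0.915, 1.44 and 0.750 at 12 hpi. Its log2 fold change was 2.82 (SE 0.58), against 0.60 (SE 0.30) for the sum of the 2 transcripts of STRIP2. TCONS_00158650, antisense to NBDY, whose microprotein takes part in mRNA decapping, had 0.137, 0.205 and 0 FPKM at 6 hpi and 2.40, 2.02 and 0.667 at 12 hpi. Its log2 fold change was 3.05 (SE 0.89), and that of the gene sum was 0.71 (SE 0.29). In both genes the groups of the transcript did not overlap. TCONS_00158650 (chrX:93779578-93836926) and LINC1054 were the other lncRNAs that the study took from this comparison to qRT-PCR.
TCONS_00158650 forward: agggtggcaatgtcagtaatc
TCONS_00158650 reverse: gctaacggagtctatgaggga
LINC1054 forward: gcctctgtagcaggatttg
LINC1054 reverse: ttcctcctgcgtgtatcc

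Among genes with a single listed transcript, LINC624, an intergenic lncRNA (chr19:14898597-14903930), had 4.47, 3.49 and 3.68 FPKM at 6 hpi and 9.42, 6.61 and 8.10 at 12 hpi. The 0 h libraries, at 3.89, 3.75 and 4.96 FPKM, were at the level of 6 hpi. Its log2 fold change of 1.03 (SE 0.22, adjusted p = 0.332) was just past the threshold of 1, and it lay between 0.91 and 0.99 without 6 hpi replicate 2, without 6 hpi replicate 3 or without 12 hpi replicate 1, and at 0.95 with each library centred on its median, so the call was lost in each of these fits. LINC1054 (TCONS_00098403, chr26:37718497-37775549) had 0.0121, 0 and 0.168 FPKM at 6 hpi and 0.617, 1.42 and 1.71 at 12 hpi, with a log2 fold change of 3.12 (SE 0.88). PARP4-OT1, within a gene of the poly-ADP-ribose polymerase family, had 0.433, 1.00 and 0.521 FPKM at 6 hpi and 1.68, 1.83 and 1.58 at 12 hpi, with a log2 fold change of 1.33 (SE 0.34). These 3 were higher in each library of 12 hpi than in any of 6 hpi.

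AQP9-OT1 overlaps AQP9, which encodes a channel for water and glycerol (chr10:52107217-52135965). Its FPKM was listed as 0 in each 6 hpi library and as 2.16, 0.929 and 1.85 at 12 hpi, with an adjusted p of 0.365. At 0 h it was at 0, 0.995 and 0 FPKM. In the other direction, TCONS_00042399, antisense to ENSBTAG00000052708, had 1.24, 2.88 and 0.707 FPKM at 6 hpi and 0 in each 12 hpi library, with an adjusted p of 0.332. MGAT5B-OT1, within a gene for an N-acetylglucosaminyltransferase, had 0.904, 0.868 and 0.261 FPKM at 6 hpi and 0 in each 12 hpi library, with the same adjusted p. No fold is given against a group at 0. Of all 2257 lncRNAs, 3 were listed at 0 in all of 6 hpi and above 0 in all of 12 hpi, 2 the other way round, and 1719 were above 0 in all 6 libraries.

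Among the remaining leading lncRNAs that were higher at 12 hpi, LINC892 had 0.382, 0.295 and 0.285 FPKM at 6 hpi and 1.44, 1.11 and 0.692 at 12 hpi, with a log2 fold change of 1.45 (SE 0.40). ENSBTAG00000055209-OT1 and ENSBTAG00000001956-AS1 were higher by log2 fold changes of 1.72 and 1.2. Among the lower ones, LINC518 had 1.60, 1.69 and 1.80 FPKM at 6 hpi and 0.762, 0.828 and 0.788 at 12 hpi with a log2 fold change of −1.01 (SE 0.23). LINC54, LINC1115, LINC1412, TCONS_00068019 and TCONS_00096946 had log2 fold changes of −1.38, −1.54, −1.27, −1.29 and −1.0. The sums over all listed transcripts of a gene were not called for TCONS_00068019, TCONS_00096946, LINC54 and ENSBTAG00000055209-OT1, at −0.10, −0.22, −0.67 and 0.36. The adjusted p of all 20 leading lncRNAs lay between 0.332 and 0.462. Calls close to the threshold of 1 were lost when 1 library was left out, at −0.97 and −0.98 for LINC518 (TCONS_00044921) (without 6 hpi replicate 3 and without 12 hpi replicate 1), at −0.95 to −0.78 for TCONS_00096946 (without 6 hpi replicate 1 or 2 or 12 hpi replicate 1) and at 0.99 for ENSBTAG00000001956-AS1 (without 12 hpi replicate 1).

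**Figure D4:**
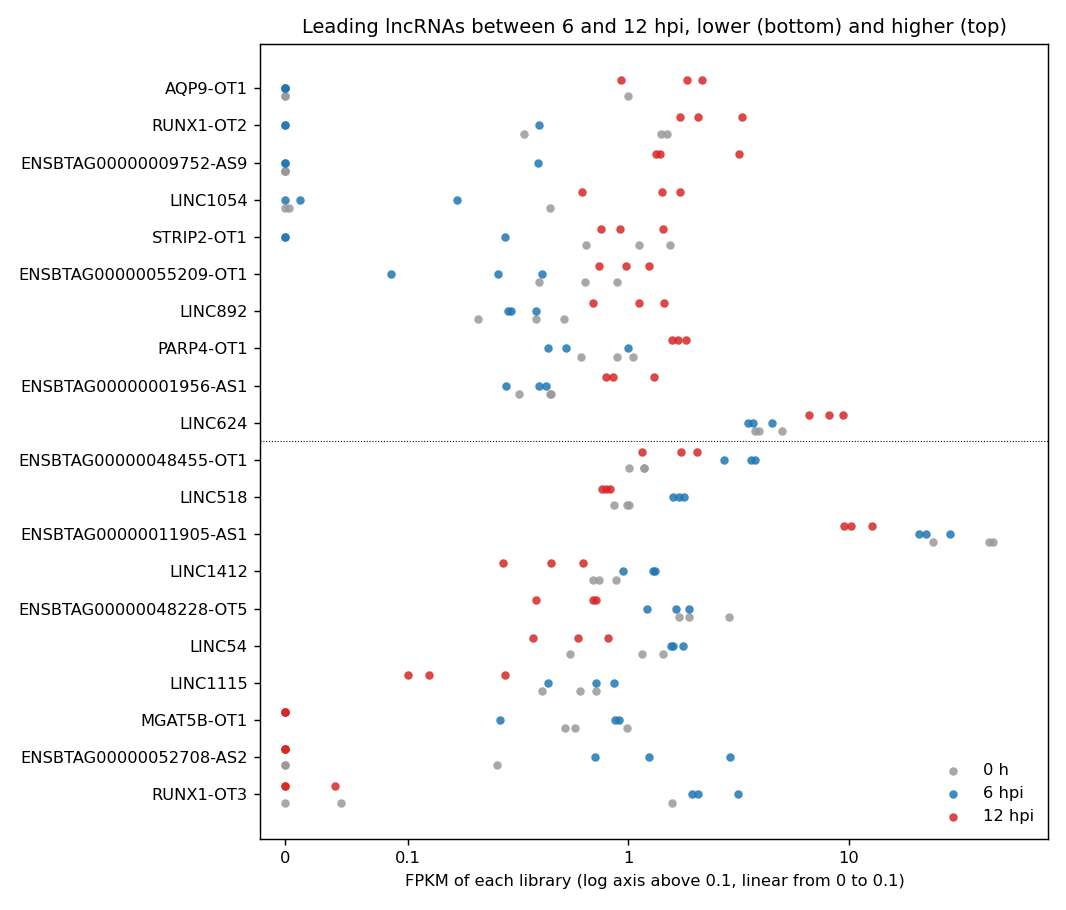
FPKM of each library (horizontal axis, logarithmic above 0.1 and linear below) for the 10 higher and 10 lower lncRNAs with the smallest p among called transcripts whose 6 and 12 hpi values do not overlap. Points are the 3 libraries of 0 h (grey), 6 hpi (blue) and 12 hpi (red), and ENSBTAG00000011905-AS1, which is TCONS_00039271, stands at 9.48 to 12.7 FPKM at 12 hpi, above the others. ENSBTAG00000009752-AS9 is TCONS_00139850, ENSBTAG00000048228-OT5 is TCONS_00068019, ENSBTAG00000048455-OT1 is TCONS_00096946 and ENSBTAG00000052708-AS2 is TCONS_00042399.

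Called lncRNAs of different genes lay within 1 Mb of each other at 7 loci, and how many such neighbours chance gives was not tested. On chromosome 7, 17 tested lncRNAs of 7 genes lay between positions 17846885 and 18654109, a span bounded by called lncRNAs. Of these 5 were called, 29.4% against 5.39% of all tested lncRNAs, and they did not share a direction. The span was set by the calls, and 8 of the 17 are transcripts of XLOC_081061, so these shares cannot be compared. TCONS_00139850, KHSRP-OT1 and ENSBTAG00000017661-AS4 were higher at 12 hpi, and ENSBTAG00000017661-AS1 and LINC1412 were lower. KHSRP encodes a protein that promotes the decay of AU-rich mRNAs, among them cytokine mRNAs, and KHSRP-OT1 had 0.733, 0.296 and 0.583 FPKM at 6 hpi and 0.979, 1.36 and 1.05 at 12 hpi. It had a log2 fold change of 1.0 (SE 0.37), and the call was lost without 6 hpi replicate 2, at 0.69, without 12 hpi replicate 2, at 0.87, and under centring, at 0.92. On chromosome 12, ZMYM5-OT1 had 1.50, 0.929 and 0.993 FPKM at 6 hpi and 0.611, 0.366 and 0.340 at 12 hpi, while PARP4-OT1 beside it was higher.

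The genes of LPS signalling were seen only through the lncRNAs they host or lie close to, because no mRNA values were analysed here. A lncRNA was counted to a list where its host gene was on the list or had a listed gene within 100 kb. Of 9 tested lncRNAs of the TLR4 and NF-kB list, none was called in either direction (5.39% of all tested lncRNAs were), and their median log2 fold change was 0.03 against 0.07 over all. IRAK3-OT1, within the gene of a negative regulator of TLR signalling, had a log2 fold change of 0.49 (SE 0.51). None of 7 lncRNAs of the interferon and antigen presentation list was called, nor any of 12 of the cell cycle and p53 list. Of 4 lncRNAs of the cytokine list, KHSRP-OT1, close to the ligand gene TNFSF9, was called higher. These lists hold so few lncRNAs that 1 call outweighs the background share.

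For MAPK signalling, 1 of 15 lncRNAs was called, TCONS_00039271 antisense to RRAS2. Over all tested lncRNAs the share called was 5.39%, which also stands beside the PI3K-Akt, mTOR, Notch and Wnt counts that follow. PLXNB2-OT1, near the p38 kinase genes MAPK11 and MAPK12, had a log2 fold change of 0.85 (SE 0.34), short of the threshold. The other lncRNAs near these genes went both ways and were not called. They were PPP6R2-OT1 at 2.12, ENSBTAG00000018660-AS1 at −1.35, ENSBTAG00000018660-AS2 at 0.15 and PPP6R2-OT2 at −0.04. For PI3K-Akt and mTOR signalling, 1 of 5 was called, CFAP91-OT1 near the kinase gene GSK3B, with 0.505, 0.809 and 0.896 FPKM at 6 hpi and 0.0746, 0.477 and 0.219 at 12 hpi. Its log2 fold change was −1.36 (SE 0.56), and the call of this transcript (TCONS_00001121) was lost in 4 of the 6 fits that left out 1 library (without 6 hpi replicate 2 or 3, or without 12 hpi replicate 1 or 3), where it lay between −1.37 and −0.93. For Notch and Wnt signalling, 2 of 10 were called. RNF5-OT3, near the receptor gene NOTCH4, had 1.40, 0.724 and 0.623 FPKM at 6 hpi and 0.102, 0.102 and 0.224 at 12 hpi, with a log2 fold change of −2.02 (SE 0.71), and it was not called without 6 hpi replicate 1 or 2, at −1.71 and −2.14. SPTBN4-OT3, near NUMBL, whose product inhibits Notch, had 0, 3.30 and 0 FPKM at 6 hpi and 4.22, 1.43 and 4.64 at 12 hpi. Its groups overlapped, and its log2 fold change of 3.28 (SE 1.22) was 4.98 without 6 hpi replicate 2, with an adjusted p of 0.0334. Its call was lost without 6 hpi replicate 1 or 3, at 2.43 in both, and without 12 hpi replicate 1 or 3, at 3.06 and 2.99. The sum of the 4 listed transcripts of SPTBN4 had a log2 fold change of 0.39 (SE 0.25) and was not called. SPTBN4-OT2, near NUMBL too, was not called either, at −0.21 (SE 1.18).

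For TGF-beta, epithelial-mesenchymal transition and extracellular matrix, 1 of 15 lncRNAs was called, against 5.39% of all tested. SPATA2-OT1 (TCONS_00031275), near SNAI1, which encodes a repressor of epithelial genes, had 0.540, 0.878 and 0.729 FPKM at 6 hpi and 0.177, 0.125 and 0.396 at 12 hpi. This gave a log2 fold change of −1.36 (SE 0.49), and its call was lost without 6 hpi replicate 2 or 3 and without 12 hpi replicate 1 or 2, between −1.33 and −1.12. TGFB3-OT1, at 0.98 (SE 0.37), was short of the threshold. At TGFBR3, ENSBTAG00000024269-AS1 and TGFBR3-OT1 were lower and not called, at −1.16 (SE 0.52) and −0.61 (SE 0.40). The median log2 fold change of the 15 lncRNAs was −0.61, against 0.07 over all tested. Several of the 15 share a locus, so they are not independent, and whether the list differed from the rest was not tested. Near LAMB3, ENSBTAG00000015086-AS3 and ENSBTAG00000015086-AS2 went opposite ways and were not called, at −1.67 (SE 0.82) and 1.82 (SE 1.07). Of 11 lncRNAs of the mammary epithelial list, 5 overlap RUNX1 and 2 of those were called as described. CYS1-OT3, near the epithelial transcription factor gene GRHL1, was called higher as well, with 0.0265, 0 and 0 FPKM at 6 hpi and 0.711, 0.961 and 0.804 at 12 hpi. CYS1-OT2, near GRHL1 too, was not called, at 0.12 (SE 0.97). The calls of this list stand beside 5.39% of all tested lncRNAs, and those at RUNX1 share 1 locus. MBNL2-OT1, within the gene of a splicing regulator, was called higher, with 2.95, 1.03 and 3.27 FPKM at 6 hpi and 4.85, 5.22 and 5.62 at 12 hpi, with a log2 fold change of 1.23 (SE 0.43), or 0.73 without 6 hpi replicate 2. No fibroblast or leukocyte marker on the lists hosts a tested lncRNA, and of 6 lncRNAs near leukocyte markers none was called, while of 2 near a gene of the fibroblast and mesenchyme list, SNAI1, SPATA2-OT1 was called lower. The other, UBE2V1-OT1, went the other way and was not called, at 0.37 (SE 1.06). Among the mammary epithelial genes the hosts were RUNX1 and XDH, so the labelled cell type was not checked against its keratin markers here.

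The most abundant lncRNAs were not called. ENSBTAT00000084269, an annotated lncRNA, had 245, 247 and 240 FPKM at 6 hpi and 336, 241 and 253 at 12 hpi, with a log2 fold change of 0.17 (SE 0.15). TCONS_00087791, antisense to ENSBTAG00000052382, had 173, 209 and 225 FPKM at 6 hpi and 312, 226 and 270 at 12 hpi, and its log2 fold change of 0.41 (SE 0.33) came with groups that just failed to overlap. H2AC11-OT1, at a histone H2A gene, and TCONS_00063316 had log2 fold changes of 0.35 and 0.05. ENSBTAT00000069275, on an unplaced scaffold, had 1923 FPKM in 12 hpi replicate 1 and between 0.844 and 7.27 in the other 5 libraries, so its mean rests on 1 library.

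CircRNAs were measured in the same 6 libraries, as reads of a circRNA scaled to a fixed total of circRNA reads (TPM). The values show no term for length, and in each library they are whole multiples of a step, taken here as 1 back-splice junction read. A total of 1000000 divided by the step gave a whole number within 0.00228 in all 9 libraries, as a total of reads would. The reads are thus inferred from the values, and the lowest value listed is 2 of them. The circRNAs are known here by identifiers only, without host gene or position. The 6 hpi libraries held 6162, 8123 and 8787 circRNA reads and the 12 hpi libraries 9747, 9434 and 9599. A 6 hpi library listed 1100, 1312 and 1371 circRNAs and a 12 hpi library 1518, 1498 and 1479. The difference of 237 circRNAs did not overlap between the time points (two-sided exact permutation test, p = 0.1, the smallest possible). Thinned to 6162 reads each, the libraries listed 1100, 1131 and 1139 circRNAs at 6 hpi and 1168, 1172 and 1151 at 12 hpi. The time points still did not overlap, with a difference of 40.2 (exact permutation p = 0.1). The 10 leading circRNAs of a library took 9.10% ± 0.221 of its reads at 6 hpi and 9.24% ± 0.164 at 12 hpi (mean ± SD, n = 3 libraries).

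**Figure D5:**
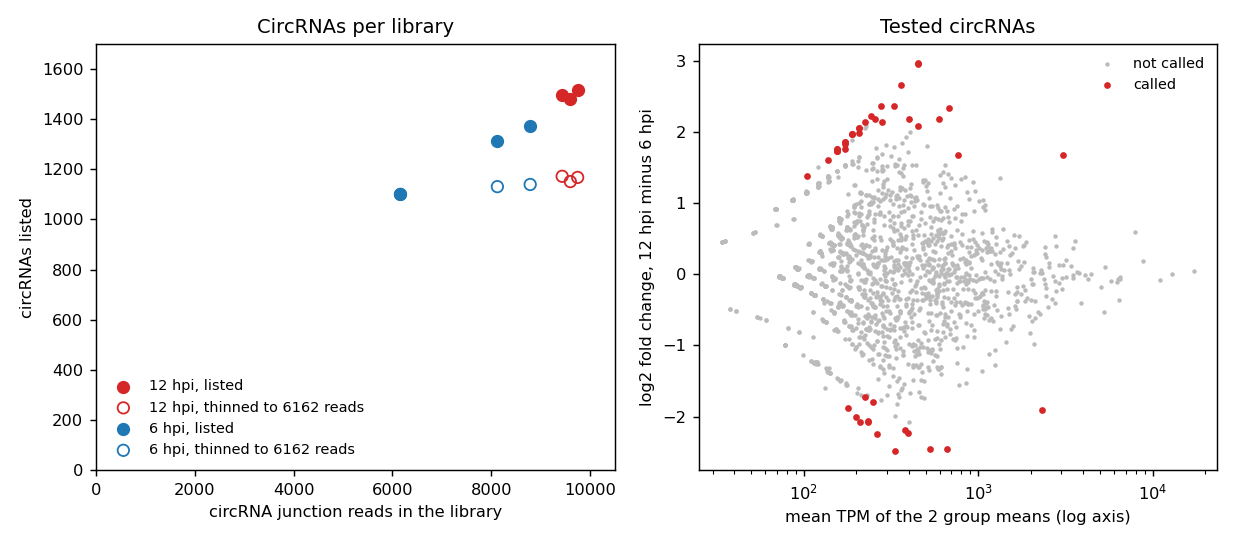
Left, number of circRNAs listed (vertical axis) against circRNA junction reads (horizontal axis) for each library of 6 hpi (blue) and 12 hpi (red), filled as deposited and open after thinning to 6162 reads, where 6 hpi replicate 1 is at 1100 in both. Right, log2 fold change of 12 over 6 hpi against mean TPM (log axis) for the tested circRNAs listed in any of the 6 libraries, with the 46 called ones in red, most of them at low TPM and along the upper and lower edges.

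Of 3763 circRNAs, 1586 were above 0 in at least 3 of the 9 libraries and were tested on the log2(TPM + 129.4) scale. By the same thresholds 46 (2.9%) were called, 32 (2.02%) higher at 12 hpi and 14 (0.883%) lower. The split was not stable, at 22 higher and 22 lower when 6 hpi replicate 1 was left out, 27 and 9 for 12 hpi replicate 1, 43 and 7 for 12 hpi replicate 3, and 40 and 26 after quantile normalization. None passed an adjusted p of 0.05 in limma, where the smallest was 0.998, and 48 (3.03%) had an unadjusted p under 0.05. The values of the 2 time points did not overlap for 133 circRNAs (8.39%), and 2.46% were called as well. Of the 46 called, 37 were listed at 0 in all 3 libraries of one time point. None of the 381 circRNAs above 0 in all 6 libraries was called, and their log2 fold changes ran from −1.39 to 1.07. The filter takes part in this, since 9 of the called circRNAs were above 0 in the 12 hpi libraries alone and 3 in those of 6 hpi alone, and each circRNA that entered the test in this way was called. Further called circRNAs also needed their high group to be tested and were not counted. Among them, novel_circ_0004128, novel_circ_0004956 and novel_circ_0002128 were listed outside it in 0 h replicate 3 alone.

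The called circRNAs with the smallest p in each direction show how few reads were involved. novel_circ_0001659 had no listed value at 0 h or 6 hpi and stood at 816, 421 and 933 TPM at 12 hpi, which are 8, 4 and 9 reads. novel_circ_0004128 was listed at 0 at 6 hpi and at 816, 737 and 1140 TPM, or 8, 7 and 11 reads, at 12 hpi, and 0 h replicate 3 held 6 reads of it. In the other direction, novel_circ_0005238 had 968, 244 and 790 TPM, or 6, 2 and 7 reads, at 6 hpi and was listed at 0 at 12 hpi. novel_circ_0003862 had 323, 488 and 451 TPM, or 2, 4 and 4 reads, at 6 hpi and was listed at 0 at 12 hpi. No value of 1 read is listed, and whether circRNAs seen in 1 read were left out is not known, so a 0 may not mean that no read was present. In all, 36 circRNAs were listed at 0 in all of 6 hpi and above 0 in all of 12 hpi, and 8 the other way round, in libraries that were deeper at 12 hpi.

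Abundant circRNAs had smaller fold changes. None of the 20 with the highest mean TPM was called, and their log2 fold changes ran from −0.53 to 0.59. The circRNA with the highest mean had 93, 141 and 164 reads at 6 hpi and 155, 183 and 169 at 12 hpi, with a log2 fold change of 0.05 (SE 0.11) in TPM. The highest of the 20 fold changes, 0.59 (SE 0.22, adjusted p = 0.998), belonged to a circRNA with 36, 55 and 55 reads at 6 hpi and 97, 79 and 99 at 12 hpi. Its 12 hpi values in TPM all lay above those of 6 hpi.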

How the data were processed

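The 9 lncRNA and circRNA tables were used, one group per time point in the sample titles. LncRNA FPKM were deposited by the authors, whose methods name Hisat2 mapping to Ensembl 97, Cuffmerge, filters on exon number, length, FPKM and coding potential, and StringTie. The submitters' processing notes name HISAT2, Cuffdiff 2.1.1, DESeq 1.10.1 and ARS-UCD1.2. CircRNA TPM were deposited by the authors, with a circRNA caller not given in the sources used here. CircRNA depth was inferred from the steps of the TPM values (6162 to 9747 reads in the 6 libraries), and thinned counts cover counting error only.

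Limma 3.58.1 in R 4.3.3 fitted log2(FPKM + 0.1) or log2(TPM + 129.4) to all 9 libraries with a trend in the empirical Bayes step, and the 12 minus 6 hpi contrast was taken. Scripts were tested on simulated data. Named were the 10 higher and 10 lower called, non-overlapping lncRNAs by p, those the study measured by qRT-PCR, switches, the 5 highest, genes called both ways, called list members, and the corresponding circRNAs. LINC178, ZMYM5-OT1, RRAS2-OT1, IRAK3-OT1, PLXNB2-OT1 and TGFB3-OT1 were named after their values were seen. So were the uncalled lncRNAs given for PPP6R2, TGFBR3 and SPTBN4. Members and lists were chosen with earlier results of these data known. RefSeq ARS-UCD2.0 placed 480 of 482 host symbols for neighbours. A further 523 hosts have an Ensembl identifier only. Primers come from the study's primer table. Columns left unused numbered 0. Alternatives were other pseudocounts, filters, scalings, fits and each library left out.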

Additional observations from a re-analysis of the deposited data

How the results depend on the processing

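The counts of calls depended on the pseudocount. With pseudocounts of 0.5 and 1, 48 and 17 lncRNA transcripts and 33 and 10 gene sums were called, against 105 and 79. With a pseudocount of 500 TPM, 16 circRNAs were called, against 46. A larger pseudocount shrinks the fold change of low transcripts by construction. Leaving out 1 library gave 87 to 119 transcripts, 75 to 98 gene sums, 36 to 55 circRNAs and a difference in listed circRNAs of 157 to 292. Replicate numbers were only labels (the deviations of same-numbered libraries correlated at −0.0754 to −0.00642), and the fit with the replicate number as a block called 103 transcripts, 79 gene sums and 46 circRNAs.

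Of 105 called transcripts, 8 were called under all 18 alternatives. They were RUNX1-OT2, RUNX1-OT3, AQP9-OT1, TCONS_00039271, TCONS_00042399, TCONS_00139850, TCONS_00158650 and LINC1054. All of these but TCONS_00039271 needed the group where they were high to pass the main filter. Of the gene sums 4 of 79 were, and of the circRNAs 5 of 46 under 13 alternatives. An adjusted p under 0.05 was reached in 3 fits by 1 lncRNA each, RUNX1-OT3 (0.028, only the 6 libraries), SPTBN4-OT3 (0.0334, without 6 hpi replicate 2) and LINC178 (0.00285, without 12 hpi replicate 3). RUNX1-OT3 entered its fit through the group where it was high. Over 73 named results and 1226 alternative values, 105 calls were lost, 2 were gained and none turned direction while called. Count models on circRNA reads were planned and not run, since the deposited values are TPM and the reads are inferred from their steps. Sums per host gene were not run, since no host genes were used here. The few reads per circRNA limit what its test can show.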

Other observations

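LINC178, an intergenic lncRNA on chromosome 11, stood at 0 FPKM in each 6 hpi library and had 2.61, 4.58 and 0 FPKM at 12 hpi, so 12 hpi replicate 3 was unlike the other 2. At 0 h it had 2.54, 2.64 and 4.93 FPKM. Its main p was 0.0183, and the sum of the 2 transcripts of its gene had a log2 fold change of 0.95.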
